A study of Spodoptera frugiperda with 3 samples.

Results

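The genes described here are 220 protein-coding genes of the fall armyworm, Spodoptera frugiperda, that were abundant in Verson's glands of the prepupa and low in the glands of the other stages sampled. They were chosen by their levels in these same libraries, out of 18811 protein-coding genes and 20644 genes listed in all. A member had a level R of at least 50 in the prepupa, and its R + 1 there was at least 20 times that in both other stages. R is TPM (transcripts per 1000000, a read count divided by gene length and scaled to the library) without rRNA rows and mitochondrial rows, rescaled to 1000000 in each library. Of all coding genes, 1.21% (227 genes) met this rule, and 7 of these 227 were left out by name. Their prepupa level and their ratio to L6 and pupa are therefore a description of how they were picked, not a finding.

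The 3 libraries came from glands dissected from L6 last instar larvae, prepupae and pupae, with 1 library per stage. All came from FAW-SID1, a transgenic line that expresses GFP and the Caenorhabditis elegans double-stranded RNA transporter SID1 under the hr5-IE1 and IE1 promoters, so every stage carried the transgenes. Whether glands of several animals were pooled is not given in the sources used here. With 1 library per stage no difference could be tested against biological spread, and no p-value is given. Intervals below are 95% Poisson or binomial intervals that cover counting error only.

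Verson's glands are paired, segmental dermal glands of Lepidoptera that sit beside the epidermis. They are known to fill with secretion before a moult and to empty it around the moult. The authors propose that the secretory cell releases into the hemolymph and the saccule cell to the outside, and leave this to further study. They also report that the glands die by programmed cell death and are gone soon after pupation. The prepupa is the stage between the feeding larva and the pupa, when the pupal cuticle is made under the larval one.

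Total exon reads numbered 21366500 in L6, 15208331 in prepupal and 18620715 in pupal glands, but rRNA took 87.8% of them in L6, 0.307% in prepupal and 37.1% in pupal glands. That left 2610753, 15161624 and 11716156 reads in the same order. One read on a gene of 1 kb was thus worth R of 0.397 in L6, 0.0950 in prepupal and 0.0787 in pupal glands, so a low level was seen least well in L6. The stages also differed in markers of other tissues. The 7 fat body genes (storage proteins and lipid carriers) summed to R of 3284, 326 and 12192 in L6, prepupa and pupa. The 28 epidermis genes (chitin and cuticle) summed to 10933, 2603 and 17237. The 10 muscle genes summed to 7042, 304 and 250, and without the titin-like member among them to 7041, 93.6 and 249.5. The 2 hemocyte genes summed to 300.5, 3.36 and 2.79. These lists were lowest, or near their lowest, in the prepupa. The 12 oenocyte-type lipid genes went the other way, at 135, 3063 and 110, and 3 of them are members. Without those 3 genes the sums were 135, 485 and 105. The single midgut gene stood at 1.47, 29.5 and 0.182, the single silk gland gene had reads only in the pupa, and no tracheal gene was found by name. No list used here defines the cells of Verson's glands themselves, so the tissue label was not checked beyond these lists. The part that differing tissue content had in the members' levels was not tested. In whole glands, fewer cells of a type and less RNA per cell cannot be told apart.

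Together the members took 24.0% of R in the prepupa, against 0.0932% in L6 and 0.206% in the pupa. In reads they held 3684415 of the prepupa library outside rRNA and mitochondrial rows, or 24.3% (24.28 to 24.32%, Wilson interval). Their median R was 0.466 in L6, 171.3 in prepupal and 0.465 in pupal glands, while the median over all coding genes was 1.28, 1.63 and 0.737. The prepupa level ran from 50.4 to 103464, with 3 members at 10000 or more, 31 at 1000 or more and 67 under 100. Of the 10 most abundant coding genes of the prepupal gland 6 were members, and of the 100 most abundant 19 were. Genes that met the rule but were left out by name were also among the 10.

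**Figure D1:**
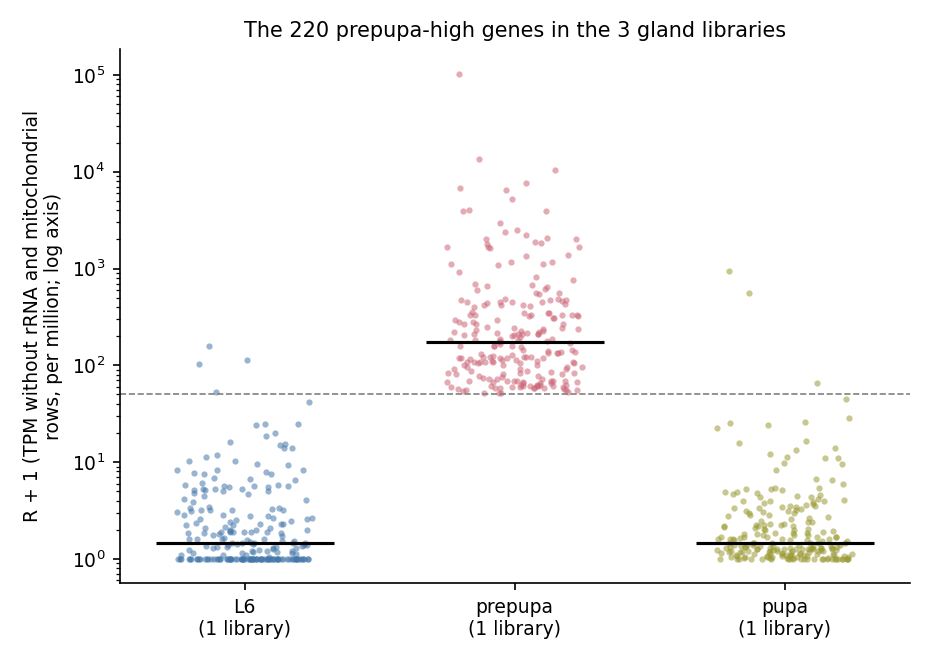
R + 1 on a log axis for each of the 220 members (points) in the L6, prepupa and pupa libraries, with the median as a black bar and R of 50 as a dashed line. The prepupa points lie above the line because the rule required it, and in L6 and pupa most points lie near the bottom of the axis, with medians of R of 0.466 and 0.465.

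Low in the other stages did not mean absent, and not every member was strictly confined to the prepupa. In both other stages 108 members had R under 1, while 112 reached 1 or more in L6 or pupa, 25 reached 10 or more and 6 reached 50 or more. No read at all was counted in L6 for 79 members, in the pupa for 25 and in both for 18. Over all 18811 coding genes, 5387 had no read in L6 and 4415 had none in the pupa. Lack of reads in either stage was thus common among coding genes at large. As a share, it was more frequent among the 220 members than among all coding genes in L6, and less frequent in the pupa. Coding genes at large with no read in both stages were not counted. L6, with fewer usable reads, gave more members without a read. On R, 98 members were higher in L6 than in the pupa and 104 were higher in the pupa than in L6. The other 18 had no read in either. The median ratio of R + 1 was 81.0 over L6 and 85.8 over the pupa. Folds were also taken without the added 1, with genes of no reads set at the bound that 3 reads per library give. Their median was 120.9 over L6 and 341.5 over the pupa. At the median exon length of the members that bound was R of 0.624 in L6 and 0.124 in the pupa, and more members needed it in L6. These median folds therefore do not show a lower level in the pupa, and median R was 0.466 in L6 and 0.465 in the pupa. As a description of the same counts that chose the members, the lower end of the counting interval of the fold on R was 20 or more against both stages in 203 of the 220.

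The rule cut through a continuous spread of values. Of all coding genes, 9.28% (1746) had a prepupa R of at least 50. With that level, 1.42% (267) reached the ratio over L6 and 1.91% (360) over the pupa. Just inside the level stood LOC118262914 at 50.4, LOC118278763 at 51.0 and LOC118262027 at 51.0. Just outside it stood LOC118275937 at 49.7, LOC118267674 at 49.4 and LOC118267717 at 49.3. By ratio of R + 1, LOC118271203, LOC118280034 and LOC118263156 were the last inside, at 20.4, 20.6 and 21.1 times. LOC118271609, LOC118268098 and LOC118270968 were the first outside, at 19.9, 19.8 and 19.4 times. There were 24 members at 20 to under 25 times and 33 coding genes of the same level at 15 to under 20 times. The same rule with another stage as the high one took 113 genes for L6 and 81 genes for the pupa.

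**Figure D2:**
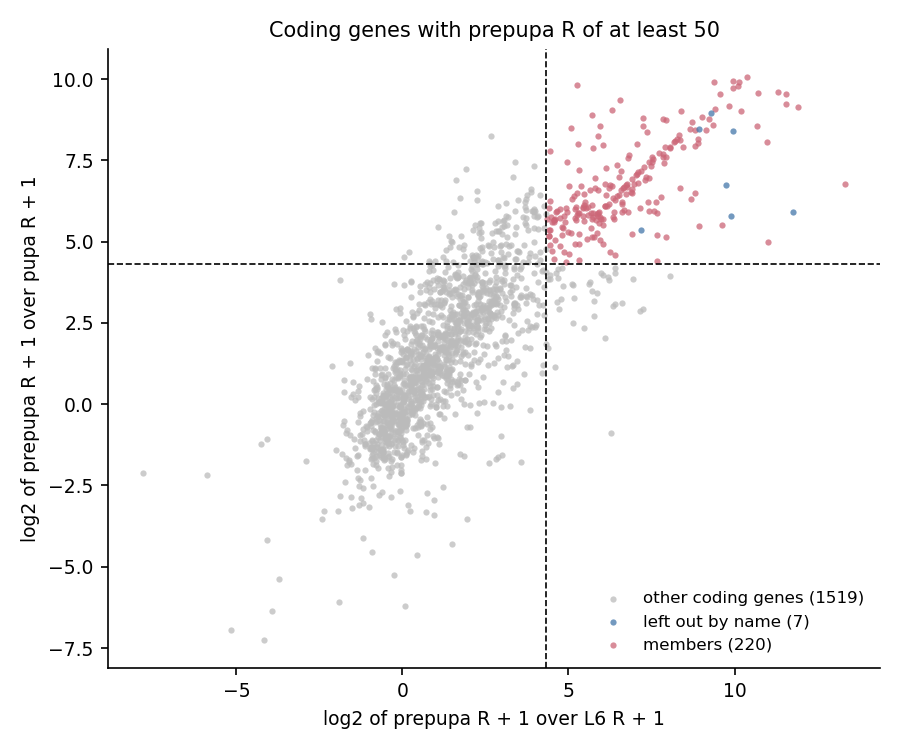
Each point is a coding gene with prepupa R of at least 50, placed by the log2 ratio of R + 1 in the prepupa over L6 (horizontal) and over the pupa (vertical), with dashed lines at 20 times. The 220 members (red) and the 7 genes left out by name (blue) fill the upper right corner, and the 1519 other genes (grey) run up to both lines without a gap.

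A single gene made up much of the members' sum. LOC118266093, an uncharacterized protein gene of 2 exons on sequence NC_049717.1 (6990128 to 6992345, minus strand), had R of 9.15 in L6, 103464 in prepupal and 953 in pupal glands, the highest level of any coding gene in the prepupal gland. It was supported by 25, 1182101 and 13132 reads, nearly all of them uniquely mapped. The prepupa level was 11313 times that in L6 (7663 to 17481) and 108.6 times that in the pupa (106.7 to 110.5). This gene held 43.1% of the members' R in the prepupa, the top 5 members held 59.0% and the top 25 held 81.2%. Without it the members took 13.7% of prepupa R.

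Enzymes were the most frequent members with a product name. Names were found for 131 of the 220, and the other 89 are given by identifier only, with no role. The names come from gene tables of the study, which name 2296 of the coding genes and were drawn up largely for genes high in these glands. A count of members among named genes is therefore not independent of the levels. Over all genes with such a name 5.71% were members. The classes with most members were oxidoreductases (26 of 125 named), lipid enzymes (15 of 35), transporters and channels (9 of 59), peptidases (8 of 57), peptidase inhibitors and cysteine-rich small proteins (8 of 34) and a mixed class of enzymes acting on sugars, sulfate or phosphate esters and some other small groups (8 of 20). As a share of the class, lipid enzymes (42.9%) and this mixed class (40%) came before the oxidoreductases (20.8%). Another 27 carried only the word uncharacterized. By share of prepupa R the order was different. Uncharacterized genes took 11.1%, mostly through LOC118266093, oxidoreductases took 2.90%, lipid enzymes 2.39% and the class of inhibitors and cysteine-rich proteins 2.31%, while the 9 transporters took 0.123%. The place of the oxidoreductases rested on LOC118265752, a glucose dehydrogenase with under 1% uniquely mapped reads. Without it they took 1.86%, below the lipid enzymes. The lipid enzymes in turn count the 2 cytochrome b5-related members, at R of 5166 and 3888 in the prepupa out of a class sum of 23889. The order of these classes therefore depends on which genes are counted. The 89 genes without a name took 2.91%.

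**Figure D3:**
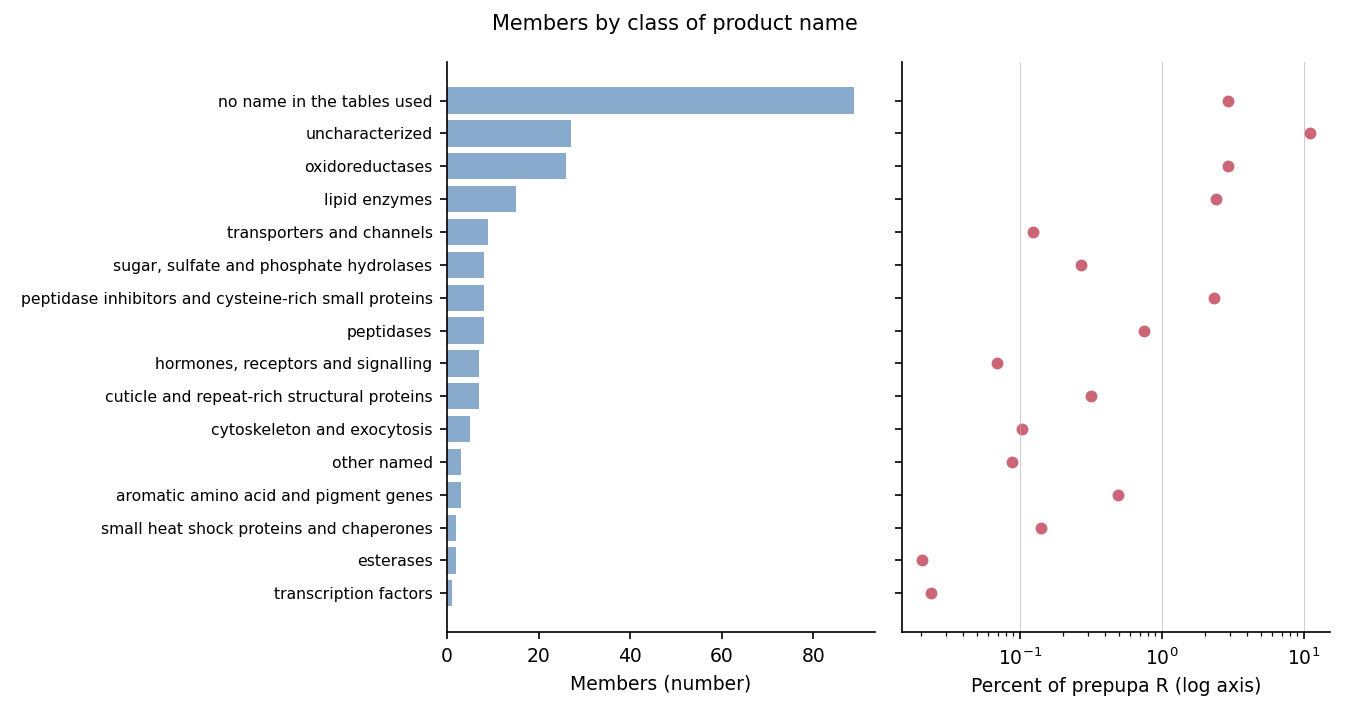
Number of members in each class of product name (bars, left) and the percent of prepupa R that the class took (points, right, log axis). The 27 uncharacterized genes took 11.1% of R, and classes with similar member numbers, such as the 8 genes of peptidase inhibitors and cysteine-rich proteins and the 9 transporters, differed widely in R at 2.31% and 0.123%.

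The class of peptidase inhibitors and cysteine-rich small proteins was grouped by name alone, and 2 of its 8 members are named as inhibitors or after the venom peptide CtAPI. It also holds the zonadhesin-like members described below, some of them long genes, so the word small does not hold for all. The U-scoloptoxin(19)-like members held 67.2% of its prepupa R. The U-scoloptoxin(19)-like gene LOC118262758 had R of 158 in L6, 13537 in prepupal and 562 in pupal glands. Its name comes from a small cysteine-rich protein of centipede venom. It was among the least confined members, at 85.5 times L6 (74.2 to 99.2) and 24.1 times the pupa (23.2 to 24.9). A second such gene, LOC118262197, stood at 3.10, 2004 and 44.0 in L6, prepupa and pupa. Both were still higher in the pupa than in L6. LOC118271848 is named after swm-1, a peptidase inhibitor that in Caenorhabditis elegans blocks sperm activation. It had 0 reads in L6, R of 2988 in prepupal and 2.99 in pupal glands. The prepupa level was at least 2442-fold higher than in L6, and 66.9% of its gene reads lay in introns, which is high for a member. LOC118282292, a venom peptide CtAPI-like gene, stood at 23.9, 1872 and 25.1.

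The zonadhesin-like genes share their name with a mammalian sperm protein built from repeated cysteine-rich domains. Of 5 named genes 4 are members. LOC118271594 had R of 0 in L6, 1162 in prepupal and 1.24 in pupal glands. LOC118269916 stood at 18.8, 611 and 2.53, LOC118261970 at 0.0498, 542 and 0.188, and LOC118282477 at 0, 418 and 0.0182. The last 2 are long genes of 42 and 48 exons on sequence NC_049712.1, and the end of LOC118282477 overlaps by a few bases a gene that was left out by name. LOC118262003, the zonadhesin-like gene that is no member, had 0.646, 9.58 and 0.0769, highest in the prepupa as well but below the level set.

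The peptidases were led by LOC118274879, named after nas-4, an astacin-type zinc metalloproteinase of Caenorhabditis elegans. It had R of 1.55 in L6, 6469 in prepupal and 7.24 in pupal glands. The prepupa level was 893 times that in the pupa (746 to 1079). The other 7 peptidases were far lower, from 58.3 to 326 in the prepupa. Among them were LOC118269693, a transmembrane serine protease at 0.224, 326 and 0.400, and the trypsin-1-like LOC118271895 at 1.30, 308 and 0.193. LOC118269693 lies next to LOC118269739, a trypsin-like member that stood at 0, 106 and 0.203.

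Oxidoreductases were the largest named class, and several of their families held genes high at other stages. Glucose dehydrogenases and their relatives are flavin enzymes of the GMC family. In Drosophila a glucose dehydrogenase is needed for the adult to leave the puparium. Of 13 named genes 6 are members. LOC118264453 had R of 0 in L6, 1674 in prepupal and 1.21 in pupal glands, at least 3202-fold higher in the prepupa than in L6. LOC118266264 stood at 1.07, 695 and 0.341, LOC118264388 at 0, 143 and 1.19, LOC118264434 at 0.126, 90.2 and 0.697, and LOC118274881 at 0, 57.9 and 0. The sixth, LOC118265752, was listed at 14.5, 10449 and 9.92, the next highest level after LOC118262758. Of its prepupa exon reads 0.966% mapped uniquely and 0.971% spanned an exon junction although the gene has 4 exons, so its level is uncertain and may include reads of near-identical sequence elsewhere. The GMC genes LOC118264744 and LOC118274655, no members and picked out after their values were seen, ran the other way. LOC118264744 had 409, 16.2 and 0.586, and LOC118274655 had 120, 0.480 and 0.217, both highest in L6. Of the 7 non-members 4 were highest in the prepupa, among them LOC118265751 at 163, 361 and 32.1 and LOC118264394 at 41.9, 161 and 0.0826, 2 in L6 and 1 in the pupa.

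Enzymes of hydrogen peroxide also held genes high in L6. Catalase, which breaks peroxide down, had 4 named genes. The 3 members lie within 52.3 kb on NC_049712.1. LOC118282430 had R of 0 in L6, 1339 in prepupal and 0.262 in pupal glands, LOC118262150 had 0, 673 and 0.256, and LOC118282418 had 0.472, 112 and 0.0468. The smaller of the ratios of LOC118282430 to L6 and pupa was 1061 times on R + 1, the highest such value among the members. The fourth catalase, LOC118262513 on another sequence, had 1086, 361 and 151, so it was highest in L6 and present at all stages. Peroxidases use peroxide to oxidise and cross-link other molecules, and 3 of 6 named genes are members. LOC118261998 stood at 24.0, 1388 and 10.1, LOC118269931 at 0.517, 1157 and 0.547, and LOC118269917 at 0, 913 and 0.595. LOC118262077, a peroxidase that is no member, had 453 in L6 (2224 reads), 0 reads in prepupal and 0.686 in pupal glands. The other non-members, LOC118269570 at 9.56, 124 and 11.7 and LOC118264035 at 2.59, 20.8 and 0.0396, were highest in the prepupa like the members. These non-member genes were also named after their values were seen.

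All 5 named xanthine dehydrogenase and aldehyde oxidase genes are members, and all 5 lie on NC_049719.1. These related molybdenum enzymes oxidise purines towards uric acid or aldehydes to acids. LOC118267487 had R of 5.79 in L6, 420 in prepupal and 0.115 in pupal glands, LOC118267651 had 0.143, 332 and 0.256, and LOC118267950 had 0.342, 246 and 0.272. LOC118267470 had 0.891, 165 and 0.0252, and LOC118267938 had 0.105, 112 and 0.104. They reached a narrow range of 112 to 420 in the prepupa, and in the pupa none was above 0.272. Other oxidoreductases were single genes of their name. LOC118264690 is named after senecionine N-oxygenase, a flavin enzyme that some moths use on plant alkaloids. It had 2.39, 6755 and 24.2, and was 2830 times L6 (1539 to 5902). LOC118263623, a cytochrome b561 domain gene of the kind that passes electrons across membranes, had 40.7, 1675 and 27.2, one of the less confined members. Of 9 genes with cytochrome P450 in their name, a P450 reductase among them, 3 are members, from 67.7 to 138 in the prepupa. Of the non-members 4 were highest in the prepupa, 1 in L6 and 1 in the pupa.

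**Figure D4:**
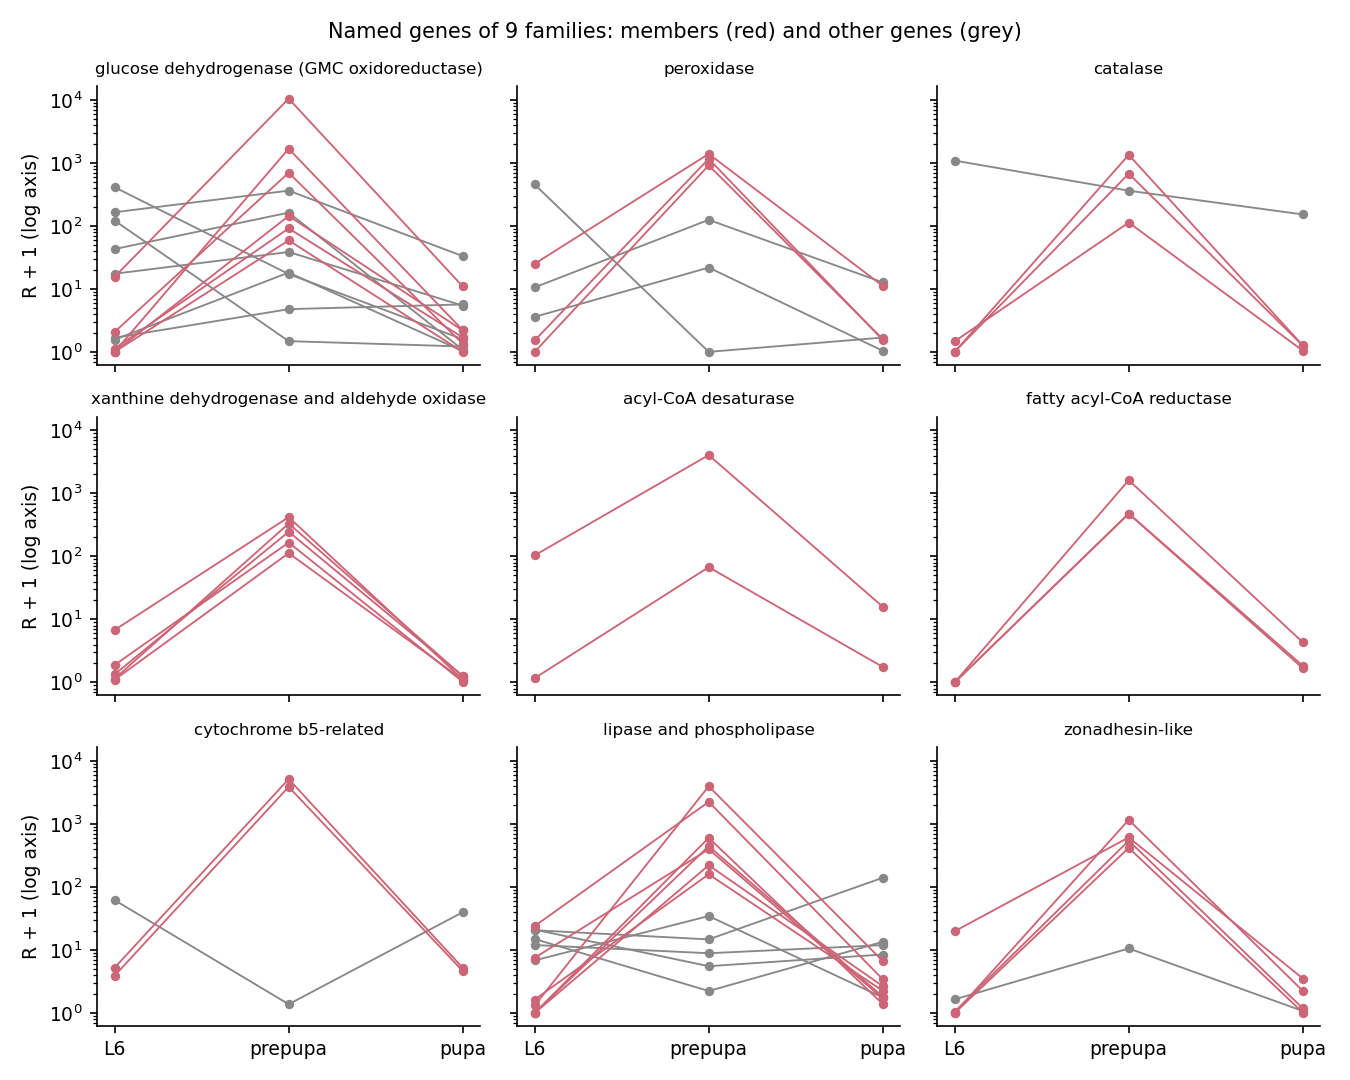
R + 1 on a log axis in L6, prepupa and pupa for each named gene of 9 families, with members in red and other genes in grey; each line is 1 gene. Member lines peak in the prepupa by selection, while the grey lines include genes that also peaked there and genes that were highest in L6, such as a catalase at R of 1086 and a peroxidase at 453.

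Lipid enzymes were the second named class. The acyl-CoA Delta(11) desaturase-like gene LOC118264952 had R of 103 in L6, 4061 in prepupal and 14.9 in pupal glands. Enzymes of this name put a double bond into fatty acyl chains and are known from moth pheromone synthesis. It was 39.5 times L6 (36.7 to 42.5) and 273 times the pupa (250.3 to 298). LOC118264926, a stearoyl-CoA desaturase, was far lower at 0.167, 66.5 and 0.760. All 3 named fatty acyl-CoA reductases, which turn acyl chains into fatty alcohols, are members and had no read in L6. LOC118265386 had 0, 1624 and 3.33, at least 2291-fold higher in the prepupa than in L6. The neighbours LOC118265399 and LOC118265401 had 478 and 476 in the prepupa. Both have 1505 exon bases and 0% uniquely mapped reads, so their reads were shared out between copies and the split between them is uncertain.

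The cytochrome b5-related genes, named for a heme-binding domain and counted here among the lipid enzymes, gave a mirrored pattern. LOC118268438 had R of 4.24 in L6, 5166 in prepupal and 4.21 in pupal glands, and LOC118268419 had 2.91, 3888 and 3.64. LOC118268438 was 1218 times L6 (779.8 to 2023) and 1228 times the pupa (1004 to 1518). LOC118268419 was 1337 times L6 (782 to 2511) and 1068 times the pupa (861 to 1343). LOC118268104, another gene of the name on the same sequence, NC_049720.1, which was noticed after its values were seen, had 60.9, 0.378 and 38.8. It was lowest where the other pair was highest. Lipases cut ester bonds of fats and phospholipids, and 7 of 12 named genes are members. LOC118275653, a lipase 3-like gene of a single exon, had 0.318, 3969 and 5.67, and LOC118265357, a lipase member H-like gene, had 23.0, 2243 and 2.43. The remaining 5 ranged from 158 to 602 in the prepupa. Across the 12 genes the members held 99.2% of the prepupa sum of R, and 3 non-members were highest in L6 and 1 in the pupa.

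The class of aromatic amino acid and pigment genes gave 3 members with high levels. LOC118273421, a tyrosine aminotransferase-like gene of tyrosine breakdown, had R of 9.30 in L6, 2365 in prepupal and 4.36 in pupal glands. LOC118264028, a relative of the Drosophila pigment gene yellow, had 51.4, 2002 and 1.23, and was the only member among 5 yellow genes. Of the other 4, 3 were also highest in the prepupa, and LOC118264306 at 6.51, 494 and 30.4 and LOC118264620 at 3.73, 295 and 17.2 missed the rule on the ratio over the pupa alone. For the member LOC118264028 the ratio was much larger over the pupa, at 1631 times (1202 to 2273), than over L6, at 38.9 times (35.0 to 43.4). LOC118274147, a kynureninase-like gene of tryptophan breakdown, had 0, 560.4 and 0.609.

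Proteins of cuticle or of repeated composition gave 7 members, and none of the 7 had a read in L6. LOC118275417, proline-rich protein 4-like, had R of 0 in L6, 1106 in prepupal and 0.266 in pupal glands. A second gene of that name, LOC118268648, had 0, 184 and 0. The 2 histidine-rich glycoprotein-like genes LOC118262036 and LOC118262032 reached 646 and 266 in the prepupa. LOC118267795, named after resilin, the elastic protein of insect cuticle, reached 329. Of 25 named cuticle protein genes only LOC118261804, cuticle protein 19-like, is a member, at 0, 227 and 0.101. The cuticle protein genes as a list summed to 10570 in L6, 746 in prepupal and 17150 in pupal glands, so the list was lowest at the stage where these members were high. Another cuticle protein 19-like gene was among the 7 genes left out by name.

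The mixed class of enzymes on sugars, sulfate and phosphate esters was at middle levels, and its highest gene is not a hydrolase by name. LOC118262403, named after the glucosyltransferase that tags misfolded glycoproteins in the endoplasmic reticulum, had R of 6.99 in L6, 559 in prepupal and 2.62 in pupal glands. LOC118265232, aminoacylase-1-like, named after an enzyme that cuts acylated amino acids, had 13.9, 476 and 3.59. Both arylsulfatase B-like members, LOC118268646 and LOC118268643, had 117 in the prepupa and R under 0.3 in the pupa. The 2 alpha-crystallin-type small heat shock genes, which keep other proteins from clumping, had a residue in the pupa. LOC118276752 had 0.376, 1085 and 22.9, and LOC118277109 had 0.374, 333 and 8.47.

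Regulators, transporters, cytoskeletal genes and esterases were among the classes that took least of prepupa R. The receptor and signalling members ran from 54.4 to 180 in the prepupa. LOC118275714, a Down syndrome cell adhesion molecule-like gene, had R of 0 in L6, 180 in prepupal and 0.0352 in pupal glands. LOC118261869, named as a receptor of the neuropeptide RYamide, had 0, 109.6 and 0.857. LOC118273521, named after SPT20, part of a transcription co-activator complex, was the single gene placed under transcription factors and had 0.252, 238 and 2.90. Of the transporters LOC118272667, UNC93-like, had 4.76, 294 and 3.97, and LOC118262382, named after multidrug resistance-associated protein 4, had 1.81, 222 and 1.15. Among cytoskeleton and vesicle release genes LOC118264677, a non-muscle myosin heavy chain, had 4.30, 279 and 2.998, and LOC118280936, javelin-like, had 0.334, 216 and 0.702. The 2 juvenile hormone esterase-like members LOC118275676 and LOC118275675, a pair of neighbours, reached 109 and 94.3 and had 3 reads each in L6 and 0 in the pupa. Of their reads 14.7% and 38.1% mapped uniquely.

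Among the 89 genes without a name, LOC118281045 was highest, at R of 0.988 in L6 (3 reads), 7598 in prepupal and 12.4 in pupal glands. Its fold over L6 was 7689 with a counting interval of 2631 to 37286. LOC118263267 had 113, 2484 and 10.3, and the lower end of its interval over L6 was 19.9 times, just under the ratio set. LOC118272867 and LOC118272868 are neighbours with like levels of 6.52, 1838 and 3.33, and of 10.9, 1794 and 3.80. LOC118279413 had 7.35, 1676 and 21.6. The median of the 89 was 0.406 in L6, 107 in prepupal and 0.323 in pupal glands. Of the 18 members with no read in either other stage 12 are in this group, and the 18 ranged from 51.0 (LOC118262027) to 238 (LOC118272531) in the prepupa. With 3 reads as the floor, LOC118272531 was at least 526-fold higher in the prepupa than in L6 and at least 2654-fold higher than in the pupa.

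By position, 41 members (18.6%) lay directly beside another member on the genome, in 19 runs. Of all 1746 coding genes with prepupa R of 50 or more, 32.6% lay beside another such gene. By the mirrored rules 31.0% of the L6-high genes and 19.8% of the pupa-high genes lay beside another of their kind. These sets differ in size, and a larger set has more such neighbours by its size alone. The shares therefore cannot be ranked against each other, and no test was made of the differences. The longest run was of 4 genes over 32.6 kb of NC_049715.1, namely LOC118264590, LOC118264588, LOC118264589 and the glucose dehydrogenase LOC118264453, at 101, 62.3, 99.0 and 1674 in the prepupa. With the glucose dehydrogenase LOC118264388 nearby, 5 of 7 coding genes within 48.4 kb were members. The second run held LOC118270528, LOC118270805 and LOC118270517 on NC_049723.1, at 107, 292 and 59.4.

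In 8 places 3 or more members followed each other with gaps of at most 100 kb, holding 32 members. Such places were not counted for other sets of genes, so whether 8 is many for a set of this size was not tested. The largest of the 8 places was on NC_049712.1, between 12715672 and 12871650. There 8 of 38 coding genes were members, and these 8 were the only ones at R of 50 or more in the prepupa. They are the 2 histidine-rich glycoprotein-like genes, cuticle protein 19-like and 5 genes without a name, none with a read in L6. The other coding genes of the stretch had no read in L6 either, apart from LOC118262026 and LOC118262035 with 1 each. No gene of that stretch reached R of 50 in L6 or in the pupa. Uniquely mapped shares there went down to 36.4%, so part of the reads may be shared among copies.

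**Figure D5:**
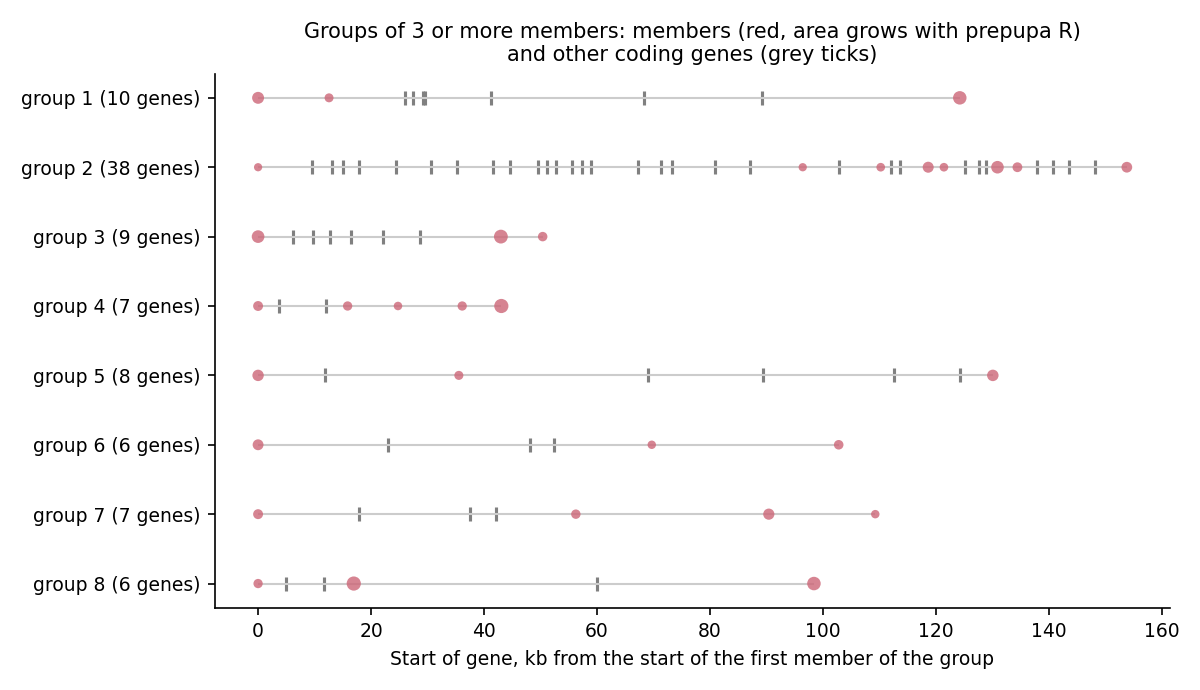
The 8 places where at least 3 members lie within steps of 100 kb, each drawn from the start of its first member in kb, with members as red dots whose area grows with prepupa R and other coding genes as grey ticks. Group 2 is the stretch with 8 members among 38 genes, group 3 holds the 3 catalases and group 4 the 2 glucose dehydrogenases with 3 genes without a name.

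Read placement bounded how firmly some members could be described. In the prepupa 31 members (14.1%) had under 50% of their exon reads uniquely mapped, against 146 of the 1526 other coding genes with R of 50 or more (9.57%). For 12 members the share was under 10%, and for 137 it was 95% or more. The members LOC118267423 and LOC118267445, each of 1653 exon bases, had 0% unique reads and like levels of 188 and 185. The median share of gene reads in introns was 2.66% for members and 0.890% for the others, and the median share of exon reads that spanned a junction was 47.3% and 45.0%. Median exon length was 1908 bases for members and 1699.5 for the others, with 7 and 6 exons. Single-exon genes were 11 of the members (5%) and 119 of the others (7.80%).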

How the data were processed

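The authors sequenced 1 library of Verson's gland RNA per stage (L6, prepupa, pupa) on a BGISEQ-500 and mapped the reads to the fall armyworm genome in CLC Genomics Workbench. The sources used here give neither the build nor the annotation release, and coordinates are those of the files. The deposited tables give counts of total and uniquely mapped exon reads, intron and junction reads, RPKM and TPM per gene. The TPM values of the authors were used for R, their RPKM values only as an alternative. Total exon reads include reads that fit several places, which bears on members with few unique reads.

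R is TPM without rRNA rows and rows on the mitochondrial sequence, scaled to 1000000 per library. This scaling multiplied TPM by 3.64 in L6, 1.00 in prepupal and 1.22 in pupal glands. Members had prepupa R of at least 50 and R + 1 at least 20 times that of both other stages, without 7 genes left out by name. Folds are on R. Where a library had no read, the fold was set against 3 reads and is a lower bound. Intervals are exact Poisson intervals for folds and Wilson intervals for shares, at 95%, and cover counting error only. With 1 library per stage no test was made. The members, gene lists and classes were chosen with earlier results of these data known. Genes named are the 25 members with the highest prepupa R, the 2 highest of each class, members of families with at least 2 of them, 3 genes on each side of each threshold, the longest runs of neighbours and members with no read in both other stages, and others, such as LOC118274147, LOC118261804, LOC118262032, LOC118267795, LOC118267423, LOC118267445 and non-members of the families, were chosen after their values were seen. A pattern for trypsins also took inhibitors and is not reported as a family. Product names are those of the study's gene tables. Names were compared by regular expression, and 159 members matched a RefSeq symbol. Neighbours are coding genes in order of their start. The code for the rule was checked on simulated counts with known changes, drawn from 1 averaged profile with counting error only. That check covers the code and not the spread between animals or tissue content. Analyses used Python 3.11.15, pandas 2.3.3, numpy 2.4.6, scipy 1.17.1, R 4.3.3 and edgeR 4.0.16 (TMM factors only). Alternatives changed the scaling, the added constant, the minimum, the ratio, the stages compared and the depth. Protein and promoter sequences were not analysed here.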

Additional observations from a re-analysis of the deposited data

How the results depend on the processing

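The number of members (220) stayed within 1.5 times under most alternatives. It became 83 with R + 10, 135 at a ratio of 50 and 353 when the L6 library was not compared. The number of members beside another (41) became 6 with R + 10, 16 with a minimum R of 100 and 26 at a ratio of 50. The share of prepupa R (24.0%) ran from 20.05% at a ratio of 50 to 27.3% without L6. It was 26.5% with TPM as deposited, 23.5% with CPM, 22.7% with TMM factors and 24.6% with uniquely mapped reads. It was 24.2% with R + 0.1, 22.4% with R + 10, 24.2% with a minimum of 10 or with none, 23.6% with a minimum of 100, 25.8% at a ratio of 10 and 25.5% without the pupa. Of the 220 members, 220 were kept with TPM as deposited, which took 96 more, 212 with TMM factors and 189 with uniquely mapped reads. The ratio alone already needs R of about the ratio, so no minimum and a minimum of 10 gave the same 277 genes. Thinning prepupa and pupa to the L6 depth, an alternative chosen after seeing the data, gave 222 members, of which 217 were shared. Over 14 classes and 15 alternatives, 184 of 210 class counts stayed within 1.5 times. No paired analysis was possible because each stage has a single library. Lone libraries, the high rRNA share of L6 and shared reads limit what these values show.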

Other observations

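Some noncoding genes met the same rule. Of 951 long noncoding RNA genes listed, 28 had prepupa R of 50 or more and 3 (0.315%) also met the ratio over both other stages. Among genes at that level this was 3 of 28 noncoding genes (10.7%), against 227 of 1746 coding genes (13.001%). One of the 3, LOC118280798, had R of 52.6 in L6, 52603 in prepupal and 1506 in pupal glands, from 42, 175593 and 6062 reads. It lies on NC_049739.1 from 607575 to 612112, 0.227 kb from the member LOC118280792 (603663 to 607348). The member LOC118280724 (614225 to 633575) lies on its other side. LOC118280792 had 4 exons, R of 65.0 in the prepupa and 0% of its 1440 exon reads over a junction. LOC118280724 had 10 exons, R of 179 and 0% of 4367 reads over a junction, with 42.4% of its gene reads in introns. The median junction share over members was 47.3%, and whether reads of LOC118280798 contribute to either level was not tested. The second, LOC118282273, had 25.5, 1861 and 31.8, and the third, LOC118262341, had 0, 51.6 and 1.59. These genes were chosen after their values were seen.

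A few other members of several exons had almost no spliced reads. LOC118281045, the fourth highest member, had 2 exons and 0.345% of 96415 exon reads over the junction, although all mapped uniquely. LOC118275555 had 0.0280% of 7134 reads and LOC118277800 had 0.155% of 5166, and they too were picked after their values were seen. Whether the annotated exons of these genes are those transcribed in the gland was not tested.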
